A study of Mus musculus with 2 samples.

Results

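The genes described here encode the super elongation complex and P-TEFb, together with Larp7, which holds P-TEFb in reserve. They were the 10 genes Mllt1, Mllt3, Ell, Eaf1, Eaf2, Aff1, Cdk9, Ccnt1, Ccnt2 and Larp7, found as probes whose only gene symbol in the platform annotation is 1 of these names. All 10 were on the array, each with 1 probe, out of 13697 genes named there. Of the 10, 9 were measured, meaning above the floor on at least 1 array, and 8 of those were above it on both. The floor is the array median, an intensity of 1.03 after normalisation. The samples were mouse embryoid bodies, aggregates of differentiating embryonic stem (ES) cells, given 2 µM retinoic acid and collected at day 4. The bodies of 1 array came from Elongin A+/+ ES cells and those of the other from Elongin A-/- ES cells. Retinoic acid was thus common to both groups, and an untreated group was not analysed here. How the Elongin A allele was made, how many ES clones were used and whether bodies were pooled were not given in the sources used here.

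With 1 array per genotype there was no replicate check, so no difference below was tested and none carries a p-value. The genotype cannot be told apart from the ES line, the culture or the array, and precision is limited by the number of arrays. The error that the arrays do hold is the disagreement between probes of 1 gene, with an SD of 0.43 on the log2 scale (95% interval 0.39 to 0.47, 224 genes with several probes above the floor on both arrays). This SD contains no variation between cultures, ES lines or repeated arrays. Eloa, the gene of Elongin A, had deposited intensities of 3.65 on the Elongin A+/+ array and 3.78 on the Elongin A-/- array. After quantile normalisation these became 3.87 and 3.57, so the sign of its small difference depended on the scaling. The place of this probe relative to the altered allele was not given in the sources used here, and it therefore checks nothing about the labels. All directions below are for the array labelled Elongin A-/- relative to the array labelled Elongin A+/+.

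After starting a transcript, RNA polymerase II often pauses close to the promoter, and the kinase P-TEFb releases it. P-TEFb consists of Cdk9 and a cyclin T, encoded by Ccnt1 or Ccnt2, and much of it is held inactive in a particle built on the 7SK RNA, which Larp7 binds and stabilises. Active P-TEFb works within the super elongation complex, in which an AFF scaffold joins it to an ELL factor, an EAF partner and 1 of the YEATS proteins ENL and AF9. In ES cells this complex is known for its recruitment to genes that retinoic acid induces rapidly, and several of its subunits are known as MLL fusion partners in leukaemia.

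The promoters of the 4 genes furthest apart between the arrays, Mllt1, Mllt3, Larp7 and Ell, are shown because 3 of them were lower and 1 was higher. They come from RefSeq (GRCm38.p6), 5′ to 3′ in the direction of the gene, and cover the 250 bases before the first listed start. For Mllt1 the last 121 of these bases lie inside the annotated span of the gene and are not printed. Capitals mark GGGCGG, the GC box, and CCAAT on either strand.

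Mllt1, chr17:56935510-56935638, minus strand: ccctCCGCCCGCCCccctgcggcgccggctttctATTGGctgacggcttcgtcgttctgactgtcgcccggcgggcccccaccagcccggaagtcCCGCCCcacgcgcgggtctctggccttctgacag

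Mllt3, chr4:88033408-88033657, minus strand: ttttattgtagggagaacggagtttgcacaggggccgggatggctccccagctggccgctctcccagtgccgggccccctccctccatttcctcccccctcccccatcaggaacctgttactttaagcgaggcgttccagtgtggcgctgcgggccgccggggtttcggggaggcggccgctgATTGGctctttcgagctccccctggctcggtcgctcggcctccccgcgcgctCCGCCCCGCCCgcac

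Larp7, chr3:127553350-127553599, minus strand: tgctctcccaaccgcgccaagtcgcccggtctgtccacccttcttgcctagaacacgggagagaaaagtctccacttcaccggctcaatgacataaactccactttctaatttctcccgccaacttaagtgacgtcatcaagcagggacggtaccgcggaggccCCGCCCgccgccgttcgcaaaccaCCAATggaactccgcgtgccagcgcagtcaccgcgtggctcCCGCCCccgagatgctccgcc

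Ell, chr8:70539425-70539674, plus strand: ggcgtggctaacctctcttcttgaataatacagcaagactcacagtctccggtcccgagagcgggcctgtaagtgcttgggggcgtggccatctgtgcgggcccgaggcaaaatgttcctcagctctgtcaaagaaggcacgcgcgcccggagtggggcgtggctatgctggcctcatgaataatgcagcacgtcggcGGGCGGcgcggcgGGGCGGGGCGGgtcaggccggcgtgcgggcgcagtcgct

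The 3 lower genes each held a CCAAT box and at least 2 GC boxes in the 250 bases, and Ell held 3 GC boxes and no CCAAT box. Among all 32851 promoter windows of that length, every listed start of a gene included, 32.7% held GGGCGG and 33.8% held CCAAT. Over the first listed start alone of all 10 genes, an unlike set of starts, 8 held a GC box and 7 a CCAAT box. GC content of these 10 windows ranged from 50.4% to 78.8% with a median of 65.4%, against a median of 52.4% over all windows. No window of the 10 held CACGTG (E-box, 6.02% of all windows) or TATAAA, known as the TATA box (12.4%), and 1, that of Eaf1, held AGGTCA, a nuclear receptor half-site (14.0%). The letters thus did not separate the lower genes from the rest, since Cdk9 also held both boxes. A match is a description of the sequence and not a measured site.

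Both YEATS subunits were lower on the Elongin A-/- array, the P-TEFb kinase differed little, the 7SK binder was lower and the ELL factor was higher. At least 2-fold lower were 2 of the 9 measured genes, Mllt1 and Mllt3, where 5.97% of all 9568 measured genes were, and none was at least 2-fold higher, where 6.76% were. At 1.5-fold the lower genes were Mllt1, Mllt3, Larp7 and Ccnt2, 4 of 9 against 14.8% of all measured genes, and the higher gene was Ell, 1 of 9 against 15.8%. The median log2 difference of the 9 was -0.25, and that of all measured genes was -0.02.

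**Figure D1:**
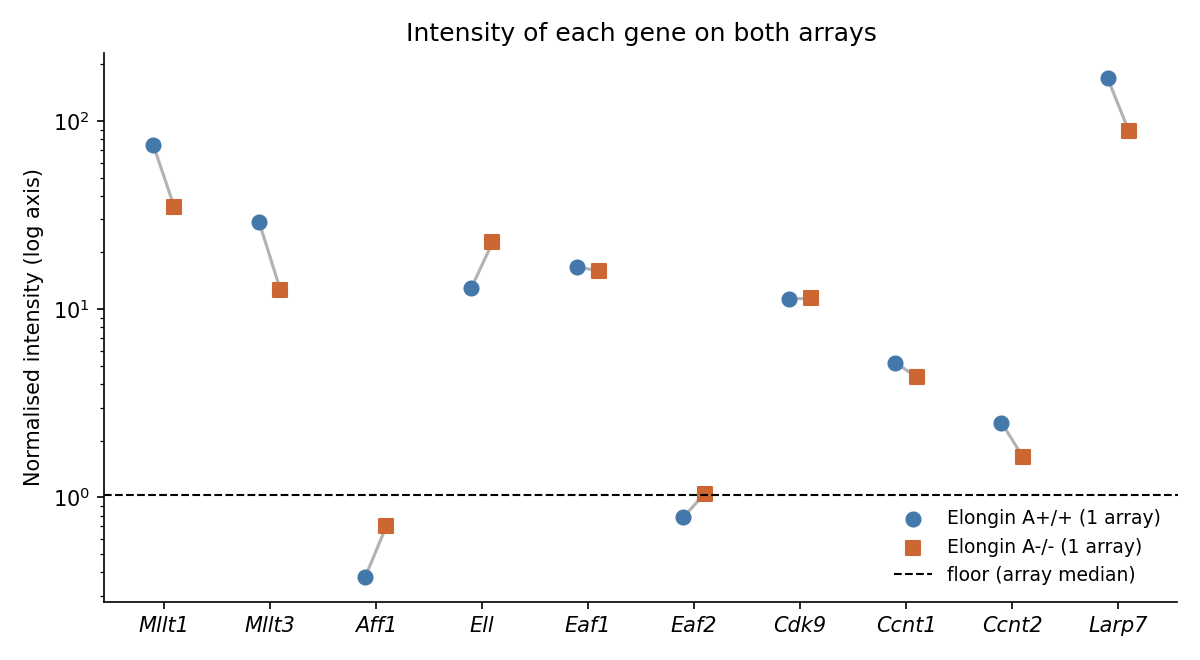
Normalised intensity (log axis) of the 10 genes on the Elongin A+/+ array (circles) and the Elongin A-/- array (squares), with a grey line joining the values of 1 gene and a dashed line at the floor of 1.03. Mllt1, Mllt3, Larp7 and Ccnt2 slope downwards, Ell slopes upwards, and Aff1 lies below the floor on both arrays. Levels are to be compared within a gene, since each has its own probe.

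Mllt1 encodes ENL, whose YEATS domain reads acylated histone tails and tethers the complex to active chromatin. Its probe 356012, paired with the transcript NM_022328, had deposited intensities of 73.6 on the Elongin A+/+ array and 35.7 on the Elongin A-/- array. After normalisation these were 74.9 and 34.8, a log2 difference of -1.11, or 2.15-fold lower. Mllt3 encodes AF9, the paralogue of ENL. Its probe 669516 is paired with the transcripts NM_029931 and NM_027326 and had deposited intensities of 28.2 and 13.1, in the same order. Normalised values of 28.9 and 12.6 gave a log2 difference of -1.20, or 2.29-fold lower. The paralogues therefore differed by nearly the same factor, 0.09 apart on the log2 scale, which is less than the SD between probes. Both differences were larger than that SD.

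Among all measured genes, 452 of the 9568 measured genes (4.72%) were as low as Mllt1 or lower, and 384 (4.01%) were as low as Mllt3 or lower. Both lie in the brightest tier of measured genes by mean level, made by cutting them into 3 tiers of nearly equal size, where large differences were rarer: 1.85% of its 3189 genes were at least 2-fold lower and 1.85% at least 2-fold higher. In that tier the SD of log2 differences was 0.47, against 0.80 in the dimmest tier. The members there were Mllt1, Mllt3, Larp7, Ell and Eaf1.

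**Figure D2:**
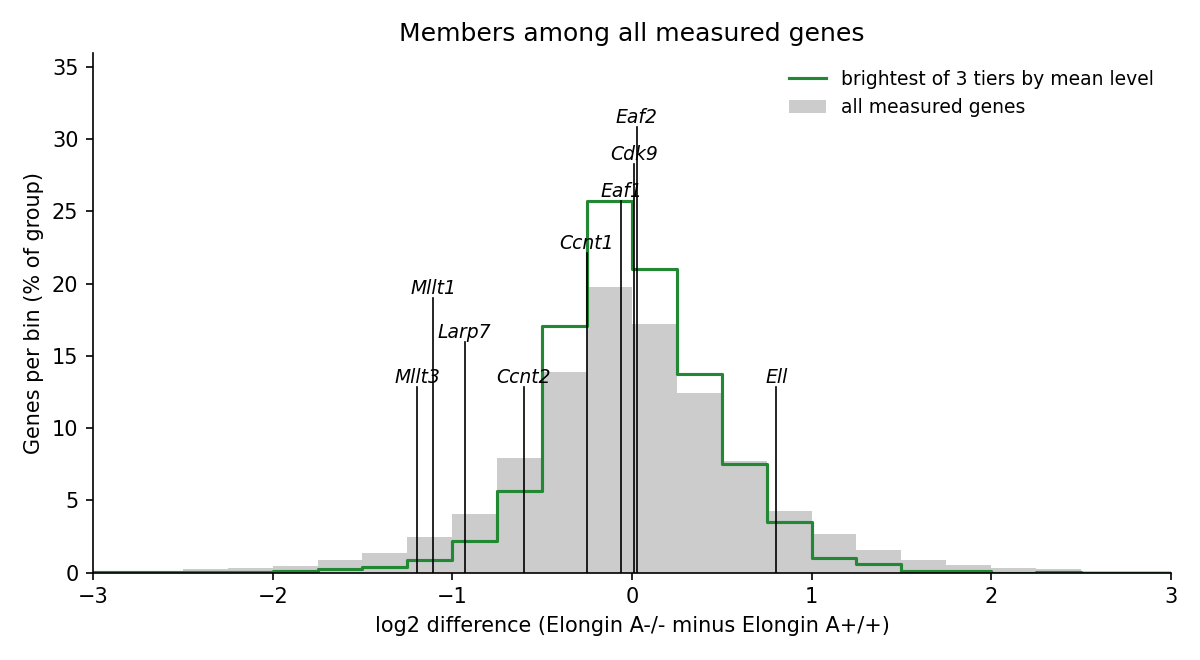
Distribution of log2 differences (x axis, bins of 0.25, shown from -3 to 3; y axis, percent of genes per bin) for all 9568 measured genes (grey bars) and for the 3189 in the brightest of 3 tiers by mean level (green line). Vertical lines place the 9 measured genes; their heights carry no value. Mllt3 and Mllt1 stand at -1.20 and -1.11, in the lower flank of the green outline.

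The scaffold subunit Aff1 (AF4) was not measured. Its deposited intensities of 0.40 and 0.69 lay below the floor on both arrays, so they give no difference. Its paralogue Aff2 was also below the floor on both, and Aff4, which carries the complex in many cells, is not among the genes named here. The scaffold of the complex in these embryoid bodies was therefore not analysed here.

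Ell, an elongation factor that raises the rate of RNA polymerase II, was the member with the largest difference in the other direction. Its deposited intensities were 12.5 on the Elongin A+/+ array and 23.4 on the Elongin A-/- array. Normalised values of 12.9 and 22.6 gave a log2 difference of 0.80, or 1.75-fold higher, and 949 of all measured genes (9.92%) were as high or higher. Ell is a chromosome 8 gene, and the 522 measured genes of that chromosome had a median log2 difference of 0.43. With each chromosome's median removed, the value of Ell was 0.37, below the SD between probes and below 1.5-fold. Ell3, a relative of Ell, was lower, with 7.96 and 4.85 (log2 difference -0.72), and Ell2 is not among the genes named here.

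Of the EAF partners, which bind ELL factors and stimulate them, Eaf1 did not differ beyond the SD between probes, and Eaf2 could not be compared. Eaf1 had deposited intensities of 16.0 and 16.7 and normalised intensities of 16.7 and 16.0, a log2 difference of -0.06 whose sign turned with the values as deposited (0.06). Eaf2 was at the detection limit. Its normalised intensity was 0.78 on the Elongin A+/+ array, under the floor, and 1.05 on the Elongin A-/- array, barely above it, so no fold is given.

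Cdk9, the catalytic subunit of P-TEFb, did not differ beyond the SD between probes. Its deposited intensities were 11.0 and 11.8, and its normalised intensities 11.3 and 11.4 gave a log2 difference of 0.01. That sign turned where the arrays were centred on their medians instead (-0.03). The cyclin partners were both lower by less than 2-fold. Ccnt1 (cyclin T1) had deposited intensities of 4.91 and 4.64 and normalised intensities of 5.19 and 4.36, a log2 difference of -0.25, within the SD between probes. Ccnt2 (cyclin T2) had deposited intensities of 2.37 and 1.71 and normalised intensities of 2.50 and 1.65. Its log2 difference of -0.60 (1.52-fold lower) was beyond that SD. With the values as deposited it was -0.47 and no longer passed 1.5-fold. With the floor value added to both intensities before taking logs it was -0.40, within that SD. Ccnt2 lies close to the floor, in the dimmest tier, where the SD of log2 differences was 0.80.

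Larp7 was just outside the 2-fold threshold. Its deposited intensities were 163 on the Elongin A+/+ array and 91.3 on the Elongin A-/- array. The normalised values of 169 and 88.7 gave a log2 difference of -0.93, or 1.91-fold lower, and 665 of all measured genes (6.95%) were as low or lower. RefSeq places 5 miRNA genes, Mir302a, Mir302b, Mir302c, Mir302d and Mir367, within the span of Larp7 on the opposite strand. They belong to a cluster known for its expression in pluripotent cells and were not analysed here. Hexim1, the inhibitor that silences P-TEFb within the 7SK particle, was near the floor at 1.17 and 1.11, and Mepce, which caps the 7SK RNA, had 15.0 and 17.1 (log2 difference 0.19).

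**Figure D3:**
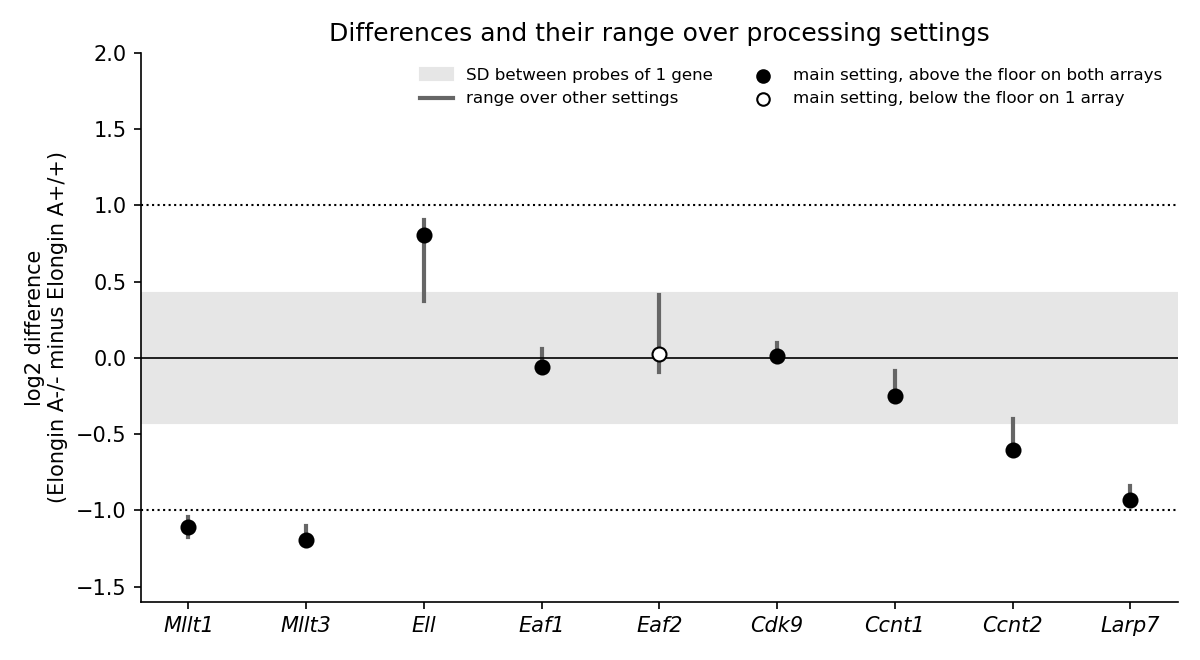
Log2 difference (Elongin A-/- minus Elongin A+/+) of the 9 measured genes at the main setting (filled points, or open for Eaf2, which is below the floor on 1 array), with bars for the range over the other settings. The grey band is the SD between probes of 1 gene, 0.43 either side of 0, and dotted lines mark 2-fold. Mllt1 and Mllt3 stay beyond -1 over their whole range, and the bars of Ell and Ccnt2 reach into the band.

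Neighbouring genes on the chromosome were set beside the 9 measured members, taking the 3 nearest measured genes on each side by their order in GRCm38.p6. Around Mllt1, on chromosome 17, 4 of 6 neighbours were higher, and Vmac (-1.26) was the 1 past 2-fold. Their median log2 difference was 0.24. The genes next to it, Dus3l (0.07) and Clpp (0.40), were not lower. Around Mllt3, on chromosome 4, which also carries Eloa, 4 of 6 neighbours were higher, Plin2 by 2-fold (1.02), and the other two were lower by at least that much, for a median of 0.15. The lower ones, Ifnb1 and Ifna12, are interferon genes with values under the floor on the Elongin A-/- array. Around Larp7, on chromosome 3, 3 were higher and 3 lower, with a median of -0.29, and the adjacent Neurog2, a proneural transcription factor, went from 8.07 to 2.42. Around Ell 5 of 6 neighbours were higher, including 2 past 2-fold. Their median was 0.96, and Lsm4 (61.4 to 119) and Rex1bd (32.5 to 62.8) were the brightest of them. Among the higher neighbours, Ssbp4 near Ell, Pspn near Mllt1 and Pramel32 near Mllt3 were under the floor on the Elongin A+/+ array. Over all measured genes 51.6% were lower by any margin. At least 2-fold lower were 5.97%, and at least 2-fold higher 6.76%. With 6 neighbours per gene, whether these counts depart from that background was not tested. Around Ccnt2, the other member past 1.5-fold, 5 of 6 neighbours were lower, including 3 past 2-fold, with a median of -0.87. Among the lower ones, Tmem163 and Mgat5 were under the floor on the Elongin A-/- array, and Nckap5 was barely above it there (1.03). R3hdm1 went from 4.07 to 1.44, so these neighbours were dim like Ccnt2 itself. All 6 neighbours of Cdk9 were higher (0.26 to 0.91), beside 3 of 6 for Eaf1, 3 of 6 for Ccnt1 and 4 of 6 for Eaf2.

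**Figure D4:**
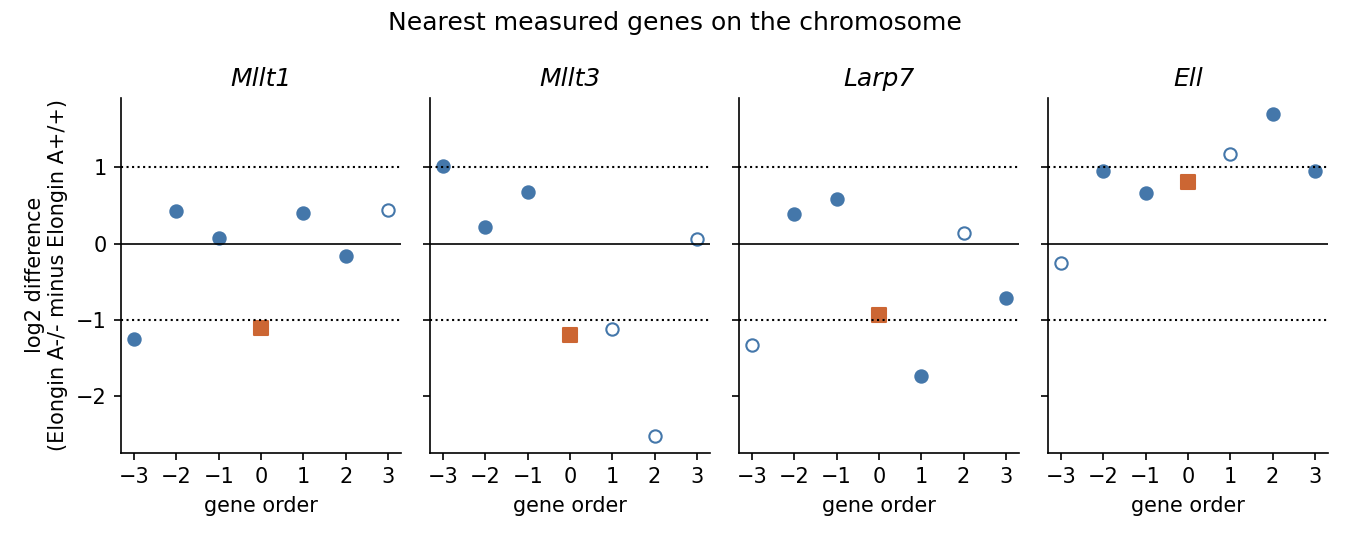
Log2 difference (Elongin A-/- minus Elongin A+/+) of Mllt1, Mllt3, Larp7 and Ell (squares, position 0) and of the 3 nearest measured genes on each side (circles, open where a value is below the floor on 1 array), in order of increasing coordinate. Circles above 0 number 5 of 6 around Ell, 4 of 6 around Mllt1, 4 of 6 around Mllt3 and 3 of 6 around Larp7.

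For the wider elongation machinery, a list of 63 other genes was named in 44 cases and measured in 39. Besides elongation factors it held Elongin subunits, other transcription cyclins and kinases, and La-related proteins. Of the 39, 1 was at least 2-fold lower and none was higher, where 5.97% and 6.76% of all measured genes were. The list's median was -0.12, beside -0.02 over all measured genes. With the values as deposited it was 0.02, beside 0.07 over all measured genes. The lower gene was Larp6, a La-related protein known for binding collagen mRNAs. Larp6 had 3.52 on the Elongin A+/+ array and was below the floor on the Elongin A-/- array, so at least 3.43-fold lower. It came from the La-related proteins, of which 2 were measured. None of the other groups that make up the 63 had a gene past 2-fold.

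Factors that set the pause were all within 2-fold, 4 of 5 higher and 1 lower by any margin, where 51.6% of all measured genes were lower. The smallest of the higher differences was 0.01. Nelfcd and Nelfa, subunits of the pausing complex NELF, were on opposite sides, with 104 and 73.9 for Nelfcd (log2 difference -0.49) and 41.9 and 57.8 for Nelfa (0.46). Supt4a, a subunit of the pausing factor DSIF, had 97.4 and 129.7 (0.41) and is a gene of chromosome 11, where the median over 803 measured genes was 0.41. Among 4 measured genes of the PAF1 complex, which travels with the elongating polymerase, Cdc73 (-0.49) and Paf1 (-0.39) were lower and Ctr9 (0.38) was higher. None of them passed 2-fold.

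Of 7 measured factors that help the polymerase along the gene, 6 were lower and 1 was higher by any margin, none by 2-fold. The higher one was Supt6, a histone chaperone on chromosome 11, with 2.84 and 4.77 (log2 difference 0.75). Of all measured genes 51.6% were lower by any margin. With the values as deposited some of the lower factors turned higher, by up to 0.05. Gtf2f2, a subunit of TFIIF, had 21.1 and 15.4 (-0.46). Tcea1, which restarts arrested polymerase, had 37.4 and 29.9 (-0.33), but its other probe had 21.6 and 24.5 (0.18), so its direction is not settled. The other transcription cyclins and kinases numbered 9 measured genes, 3 higher and 6 lower. Ccnh, the cyclin of Cdk7, had 10.8 and 15.6 (0.53), while Cdk7 itself had 18.2 and 14.1 (-0.36) and Ccnl1 had 64.3 and 48.8 (-0.40). Cdk19, a Mediator kinase, had 1.21 on the Elongin A+/+ array and a value under the floor on the Elongin A-/- array, so its difference is known only as at least 1.18-fold lower.

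The measured partners of the YEATS subunits were within 1.5-fold. Yeats4, another YEATS protein, had 103 and 88.3 (log2 difference -0.22), and Mllt10, a partner of the histone methyltransferase DOT1L, had 2.19 and 2.38 (0.12). Dot1l and Mllt6 were below the floor on both arrays. Among 5 regulators of the 7SK particle and P-TEFb, Jmjd6, a JmjC-domain enzyme, had 97.2 and 144.5 (0.57, and 0.64 with the values as deposited, which is past 1.5-fold) and lies on chromosome 11, and the splicing factor Srsf2 had 258 and 229 (-0.17). Ice2, a subunit of the little elongation complex, had 12.0 and 9.74 (-0.30). The Elongin subunits Elob (0.14) and Eloc (-0.00) were close to equal.

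**Figure D5:**
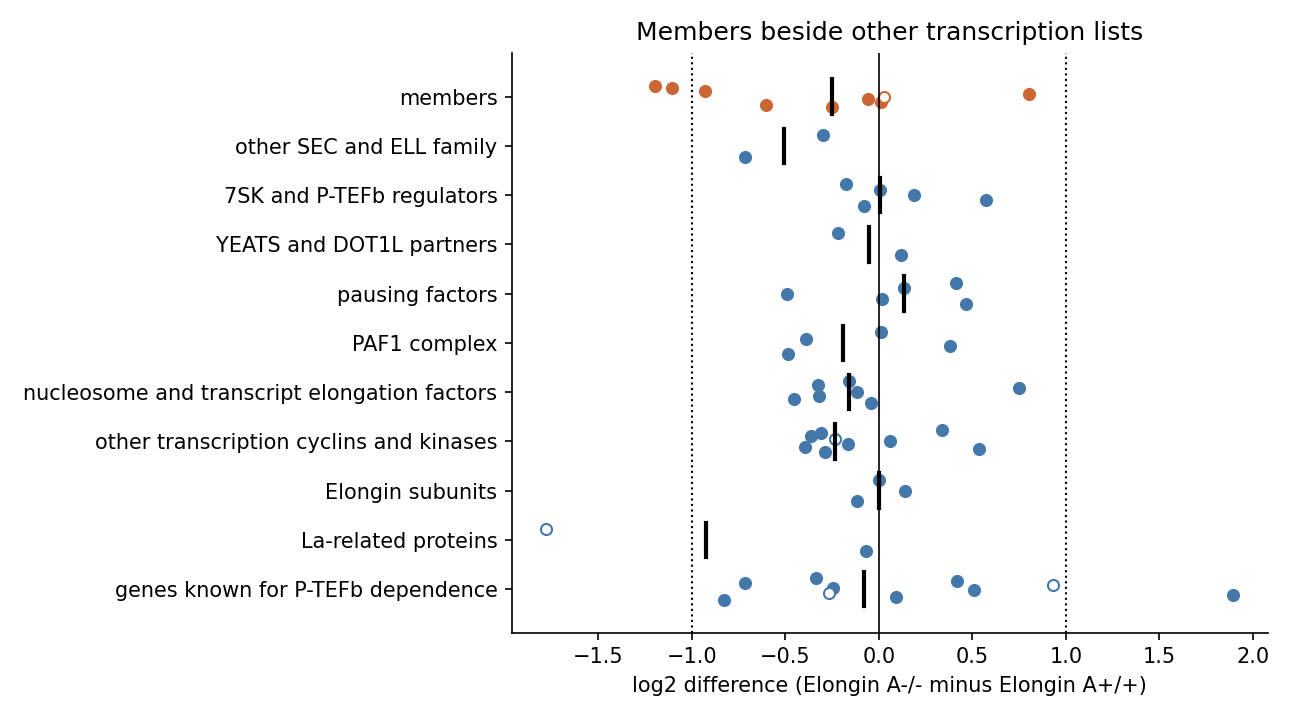
Log2 difference (Elongin A-/- minus Elongin A+/+) of every measured gene in the 10 members' list (top row) and in the other transcription lists, with a black bar at each list's median and dotted lines at 2-fold. Open points are below the floor on 1 array. Mllt3, Mllt1, Larp6 and Fos are the points beyond the dotted lines.

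Markers of several cell types also differed between the arrays, and their part in the differences above was not tested. In bulk embryoid bodies, fewer cells of a type and less RNA per cell cannot be told apart. Of 15 measured markers of blood and endothelium 11 were past 2-fold on the higher side and none on the lower. The summed intensity over the 18 named blood and endothelial markers was 33.2 on the Elongin A+/+ array and 218 on the Elongin A-/- array. Such sums are weighted towards the brightest probes. Cdh5, Gata1 and Tie1 were below the floor on both. Of 10 measured neural markers 5 were past 2-fold on the lower side and none on the higher. Sox1, among those lower, was under the floor on the Elongin A-/- array, so its difference is a bound. Summed intensities over the 11 named were 284 and 206, of which Tubb3 alone gave 179 and 168. Map2 was below the floor on both. All 4 measured pluripotency markers were lower, 1 of them by 2-fold. Summed intensities over the 5 named were 81.1 and 44.5, of which Sox2 alone gave 72.2 and 39.5. Tdgf1 was below the floor on both. Mesoderm markers were at least 2-fold higher in 4 of 4 measured cases (35.2 and 93.8 summed over 6, with Mesp1 and Eomes below the floor on both). Endoderm markers split, 1 higher (Ttr) and 1 lower (Afp) by 2-fold of 6, each above the floor on 1 array only. Summed intensities over the 7 endoderm markers named were 21.1 and 24.5, with Gata4 below the floor on both.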

How the data were processed

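RNA of 2 samples was made into digoxigenin-labelled cRNA and read on Applied Biosystems arrays with 1 colour, per the labels' protocols. The deposited intensities are linear, with array medians of 1.02 and 1.03 over 32440 probes. What the authors did for background, scaling and filtering was not given in the sources used here. Samples were grouped by title.

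Log2 values were quantile normalised, because percentiles of the deposited values differed between arrays by up to 0.16. A gene took its brightest probe. Values under the floor (the 50th percentile) were raised to it before subtraction. Quantile normalisation would hide a shift shared by most genes. No test is possible with 1 array per group. Genes were counted at 2-fold and 1.5-fold. Genes named were all 10 members, listed genes past 2-fold and the 3 furthest apart per list, plus Hexim1, Mepce, Eloa, Aff4 and Ell2, and 1 other that is not reported here. Members and lists were chosen with earlier results of these data known, and tiers by level, neighbours and promoter letters were added once values were known. Marker genes, neighbours and genes below the floor are named outside that rule. Genes and promoters matched RefSeq (GRCm38.p6) for all 10 members, and since the deposited values name no build, only gene order, chromosomes and promoter positions were taken from it. Other settings changed the scaling (as deposited, centred, loess with span 0.3), floor, probe rule, threshold or chromosome medians. Code was tested on simulated data. Python 3.11.15, numpy 2.4.6, pandas 2.3.3, statsmodels 0.14.6 and matplotlib 3.10.9 were used.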

Additional observations from a re-analysis of the deposited data

How the results depend on the processing

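Mllt1 (-1.17 to -1.04) and Mllt3 (-1.23 to -1.10) were at least 2-fold lower under each of the 5 other settings that could move them (values as deposited, centring, loess, the pseudocount and chromosome medians removed). Other floors and probe rules could not, since each has 1 probe far above every floor. No member reached 3-fold (0 members lower, 0 either way). Larp7 ranged from -0.96 to -0.84. Ell was 0.37 with chromosome medians removed, which left 0 members at least 1.5-fold higher. Ccnt2 ranged from -0.60 to -0.40 and was under 1.5-fold with the values as deposited, loess, the pseudocount and chromosome medians removed, and not measured with the 75th percentile floor. The signs of Eaf1 (-0.07 to 0.06), Eaf2 (-0.09 to 0.41) and Cdk9 (-0.03 to 0.10) turned with the setting. At 1.5-fold, 5 members were apart, 4 of them lower, as were 3 genes of the elongation list. That list had 2 genes apart with the floor at the 25th percentile, 2 with no floor and 0 with the 75th percentile floor. Counts over all measured genes depended on floor and threshold: 2055 apart (1075 higher, 980 lower) with the 25th percentile floor, 259 (141 and 118) with the 75th, 2062 (1080 and 982) with no floor, 2928 (1512 and 1416) at 1.5-fold and 391 (213 and 178) at 3-fold. Higher genes made up 53.1% of those 2-fold apart (647 against 571), and 64.1% (800 against 449) with the values as deposited. No paired analysis was possible because each genotype has 1 array. Eaf2 and Aff1 are limited by signal near or under the floor.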

Other observations

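Immediate early, short-lived and retinoic acid-induced genes, which are known for their need of P-TEFb, were split evenly between higher and lower. Of 15 genes listed, 11 were named and 10 measured, 5 of them higher and 5 lower, with a median log2 difference of -0.08. Over all measured genes 51.6% were lower by any margin, so this split is near the background. Fos, an immediate early transcription factor, was the 1 gene of 10 past 2-fold, where 6.76% of all measured genes were at least 2-fold higher, at 1.46 on the Elongin A+/+ array and 5.42 on the Elongin A-/- array (3.72-fold higher). Junb was at least 1.91-fold higher, from below the floor to 1.96, and lies on chromosome 8. Cyp26a1, the retinoic acid-degrading enzyme, had 159 and 89.8 (-0.83), and Mcl1, a short-lived survival factor, had 26.4 and 16.0 (-0.72). These genes were listed with earlier results of these data known, and no difference among them was tested.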
